A study of Mus musculus with 24 samples.

Results

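The 29 genes described here mark T and B lymphocytes: 16 T cell genes, 11 B cell genes, and Ltb and Cd37, which both cell types use. They were found by symbol in both count tables of the series, which share 38013 genes. All 29 were measured in both tables and, in every main test, passed the filter on low counts, which used the mean over all libraries fitted. RNA was sequenced from whole inguinal subcutaneous white fat of C57BL/6J mice. All of them, controls included, were transgenic for AMPKγ1, a regulatory subunit of AMP-activated protein kinase: WT-Tg mice for the wild-type form and D316A-Tg mice for a mutant form. The chow groups were sampled at 16 weeks of age, the high-fat diet groups (HFD, 45% fat) at 24 weeks, and every combination of genotype and diet has 6 libraries. Neither the promoter of the transgene nor whether libraries came from separate animals is given in the sources used here. The spread that p-values refer to is thus that between libraries and may be technical. Libraries held 13254536 to 17766546 counts on chow and 16373731 to 22748132 on HFD. A library is named by its genotype and title number; on either diet, numbers up to 6 are WT-Tg and higher ones D316A-Tg.

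T cells recognise antigen through a receptor whose signal is carried by the CD3 chains and the kinases Lck and Zap70, and divide into helper cells with CD4, cytotoxic cells with CD8 and regulatory cells with Foxp3. B cells carry membrane immunoglobulin together with the CD79 pair, and their identity rests on the factor Pax5. The inguinal fat pad of the mouse surrounds a lymph node, where both cell types gather. They enter it through high endothelial venules, vessels that make the mucin-like protein Glycam1. Glycam1 is also a milk protein gene of the mammary gland, and in female mice the inguinal pad holds mammary tissue.

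Per the labels' protocols the node was taken out before the fat was frozen, yet Glycam1 split the libraries of both diets. Levels are counts per 1000000 (CPM) on the TMM-scaled library of each diet, and a library was called Glycam1-high above 1 CPM and Glycam1-low otherwise. On chow, WT-Tg 1 to 4 and D316A-Tg 8 and 11 were Glycam1-high at 37.4 to 66.9 CPM, and WT-Tg 5 and 6 and D316A-Tg 7, 9, 10 and 12 were Glycam1-low at 0 to 0.0815 CPM. On HFD, WT-Tg 3 and D316A-Tg 7, 8, 9 and 11 were Glycam1-high at 1.84 to 10.4 CPM, and the other 7 libraries were at 0 to 0.305 CPM. The libraries nearest the threshold were both D316A-Tg on HFD, number 9 just inside at 1.84 CPM and number 12 just outside at 0.305 CPM. Glycam1-high libraries were thus 4 of 6 WT-Tg and 2 of 6 D316A-Tg on chow, against 1 of 6 WT-Tg and 4 of 6 D316A-Tg on HFD.

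Of the 6 other lymph node genes listed, 3 were higher in every Glycam1-high than in any Glycam1-low library on chow, beside 24.8% of all genes, and 4 on HFD, beside 7.11%. Cxcl13, the chemokine of B cell follicles, was at 54.5 to 152 CPM in the chow Glycam1-high libraries and 0.589 to 6.64 CPM in the Glycam1-low ones, and on HFD at 18.2 to 91.0 CPM against 0.736 to 2.74 CPM. Ccl21a, a chemokine that draws T cells into nodes, was at 33.8 to 145 CPM against 0 to 2.59 CPM on HFD, but at most 0.0589 CPM in any chow library. Of the milk genes, Wap had no counts in any library and Csn2 was at most 0.279 CPM, while Csn3, which encodes kappa casein, was at 21.3 CPM in D316A-Tg 8 on chow and at most 5.96 CPM in the other chow libraries. The summed level of the 7 listed mammary genes was 4.04 to 72.8 CPM in the chow Glycam1-high libraries and 0.551 to 20.5 CPM in the Glycam1-low ones. Among 7 adipocyte genes such as Adipoq and Fabp4, the summed level was 11591 to 22224 CPM in the chow Glycam1-high libraries and 31761 to 47918 CPM in the Glycam1-low ones, without overlap. On HFD the same sums were 23814 to 31710 CPM and 28377 to 37767 CPM and overlapped. In whole tissue, fewer cells of a type and less RNA per cell cannot be told apart. The kinds of library were defined from the data and are not groups of the study, so they are compared below without a test.

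Nearly every T and B cell gene followed Glycam1. On chow, all 29 genes were higher in each Glycam1-high library than in any Glycam1-low library, where 24.8% of 15564 genes were so separated. On HFD, 27 of 29 were, where 7.11% of 14994 genes were, and the exceptions were Ighm and Il2ra. The ratio of the medians of the kinds had a median over the 29 genes of 131 on chow and 27.6 on HFD. B cell genes had the wider gap on both diets, with a median ratio of 233 on chow and 54.4 on HFD, against 108 and 26.9 for T cell genes.

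**Figure D1:**
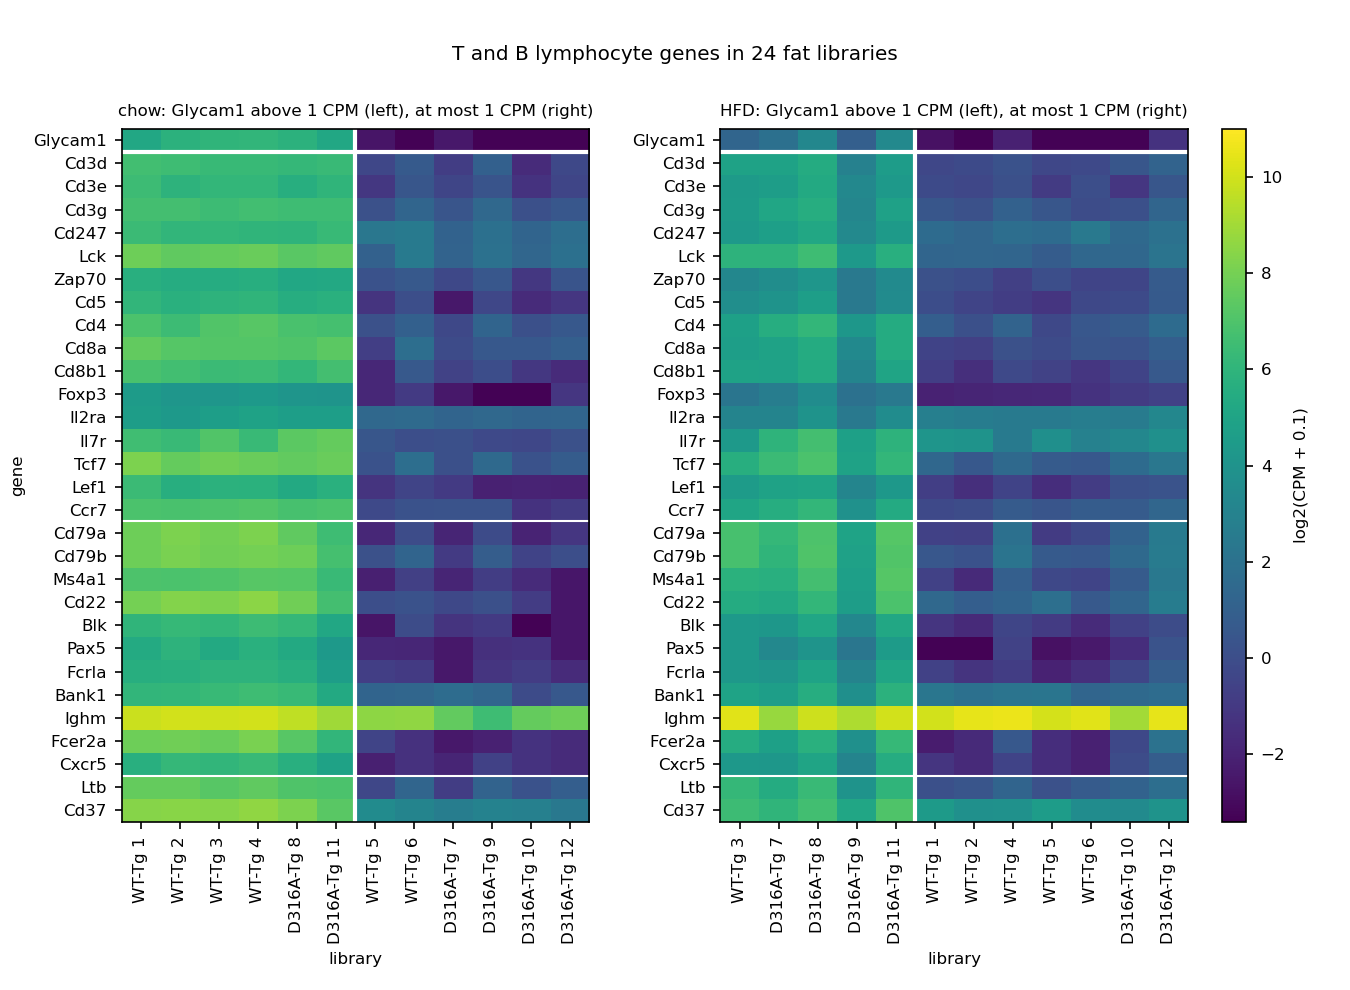
Level of Glycam1 and the 29 genes in each library, as log2 of CPM plus 0.1, with T cell genes on top, B cell genes below and the 2 shared genes last. The vertical white line parts Glycam1-high libraries (left) from Glycam1-low ones (right): all genes step down across it on chow, while on HFD Ighm stays at 438 CPM or more in every library.

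The receptor genes of T cells were abundant in Glycam1-high fat and near the limit of detection elsewhere. Cd3e, a signalling chain of the T cell receptor, was at 87.2, 60.8, 69.3 and 71.3 CPM in WT-Tg 1 to 4 on chow and at 50 and 64.8 CPM in D316A-Tg 8 and 11. In the chow Glycam1-low libraries WT-Tg 5 and 6 had 0.383 and 1.29 CPM and D316A-Tg 7, 9, 10 and 12 had 0.652, 1.17, 0.306 and 0.662 CPM. The kinds were thus far apart, and within each kind the genotypes overlapped. On HFD, WT-Tg 3 had 22 CPM of Cd3e, and D316A-Tg 7, 8, 9 and 11 had 24, 41.2, 9.88 and 21 CPM. The other 7 HFD libraries ranged from 0.368 to 1.27 CPM, and the highest of them was D316A-Tg 12. Cd3d and Cd3g, the other CD3 chains, had ratios of medians of 111 and 75.3 on chow. Lck, the kinase that starts receptor signalling, was at 159 to 227 CPM in chow Glycam1-high libraries and 1.98 to 5.65 CPM in Glycam1-low ones. Zap70, the kinase that binds the phosphorylated chains, was at 37.8 to 51.7 CPM and 0.383 to 1.41 CPM, and Cd5, a receptor that damps the signal, at 48.3 to 68.4 CPM and 0.0815 to 0.941 CPM. Cd247, the zeta chain, stood out by a higher floor, at 2.12 to 5.53 CPM in the chow Glycam1-low libraries and a ratio of medians of 19.2. Of its exon length, 60.3% overlaps Gm16565 or, on the other strand, Pou2f1, and whether the authors' counting used strand is not stated in the labels. The part of that overlap in the floor was not tested.

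Genes of helper, cytotoxic and regulatory T cells were all detected in Glycam1-high libraries. On chow, Cd8a, a chain of the coreceptor of cytotoxic T cells, was at 130 to 188 CPM in Glycam1-high libraries and 0.511 to 3.41 CPM in Glycam1-low ones. Cd4, the coreceptor of helper T cells, was at 87.4 to 155 CPM and 0.734 to 2.27 CPM. Cd4 counts per Cd8a count were 0.599 to 1.09 in the chow Glycam1-high libraries and 0.995 to 1.76 in the HFD Glycam1-high ones, ranges that barely overlapped. Since the tables were scaled separately and diet, age and base-calling version differ together, that gap was not tested. Cd8b1, the partner chain of Cd8a, had a ratio of medians of 196 on chow. Foxp3, the factor of regulatory T cells, was at 16.4 to 22.5 CPM in the chow Glycam1-high libraries. Its counts were 25.4% to 35.0% of those of Cd3e there and 20.6% to 39.2% in the HFD Glycam1-high libraries. In D316A-Tg 9 and 10 on chow it had no counts, which allows up to 0.169 and 0.19 CPM of the unscaled library. Of the exon length of Foxp3, 31.5% overlaps other annotated genes.

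Genes of naive and resting T cells divided into those near 0 in Glycam1-low libraries and those that kept a level there. Tcf7, a factor of naive and memory T cells, was at 185 to 287 CPM in the chow Glycam1-high libraries and 0.978 to 3.35 CPM in the Glycam1-low ones. Lef1, its relative, had the widest ratio of medians among T cell genes on chow, 229, and Ccr7, the receptor that guides lymphocytes into nodes, had 133. Il7r, the receptor for the survival cytokine interleukin 7, had unlike levels on the diets, a difference that was not tested. In Glycam1-low libraries it was at 0.689 to 1.28 CPM on chow but at 5.51 to 16.9 CPM on HFD, where Cd3e was no higher than 1.27 CPM. As a share of Cd3e counts, Il7r was 64.7% to 333% in the chow Glycam1-low libraries and 557% to 3044% in the HFD ones. Il2ra, the interleukin 2 receptor chain of activated and regulatory T cells, also kept a floor, at 2.22 to 2.88 CPM in chow and 5.37 to 9.64 CPM in HFD Glycam1-low libraries. The latter overlapped the 5.36 to 15.6 CPM of the HFD Glycam1-high libraries.

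B cell genes showed the same steps. Cd79a, a signalling chain of the B cell receptor, was at 224, 283, 248 and 285 CPM in WT-Tg 1 to 4 on chow and at 181 and 92.7 CPM in D316A-Tg 8 and 11. Its level in the chow Glycam1-low libraries was 0.192 and 0.883 CPM in WT-Tg 5 and 6 and 0.163, 0.827, 0.153 and 0.368 CPM in D316A-Tg 7, 9, 10 and 12. The ratio of medians, 844, was the widest of the 29 genes on chow. HFD WT-Tg 3 had 113 CPM and D316A-Tg 7, 8, 9 and 11 had 73.0, 127, 30.9 and 147 CPM. In the HFD Glycam1-low libraries, WT-Tg 1, 2, 5 and 6 were at 0.438 to 0.718 CPM, while WT-Tg 4 and D316A-Tg 10 and 12 were at 3.63, 2.09 and 5.38 CPM. These last 3 libraries were above the other 4 for Cd79a, Cd79b, Ms4a1, Blk, Pax5, Fcer2a and Cxcr5. For the other B cell genes, Cd22, Fcrla, Bank1 and Ighm, they were not, and this split was not tested. Ms4a1, which encodes CD20, was at 1.84, 1.60 and 5.08 CPM in WT-Tg 4 and D316A-Tg 10 and 12. It was at 0.215 to 0.729 CPM in the other HFD Glycam1-low libraries.

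Further B cell genes kept to the same order. Fcer2a, the low-affinity IgE receptor of mature B cells, ranged from 67.8 to 270 CPM in the chow Glycam1-high libraries and from 0.0815 to 0.639 CPM in the Glycam1-low ones. Cxcr5, the receptor for Cxcl13, had 29.2 to 82.4 CPM against 0.128 to 0.551 CPM. For Pax5, the factor of B cell identity, the ratio of medians on HFD was 186, the widest of the 29 genes there, and WT-Tg 1 and 2 had no counts, which allows up to 0.153 and 0.157 CPM of the unscaled library. Cd22, a receptor that restrains B cell signalling, was at 105 to 356 CPM against 0.0736 to 1.06 CPM on chow. Cd79b, the partner of Cd79a, was at 108 to 274 CPM against 0.408 to 2.29 CPM, and Blk, a kinase of B cells, at 37.6 to 87.1 CPM against 0 to 0.883 CPM. Bank1, a scaffold protein of B cell signalling, kept a floor of 0.842 to 3.10 CPM on chow and had a ratio of 32.0. In all of these on chow the lowest Glycam1-high library was D316A-Tg 11, and so it was for Fcrla, a protein related to Fc receptors, at 24.8 CPM. Of the genes shared by both lineages, Ltb, a cytokine subunit needed for lymph node formation, had a ratio of medians of 118 on chow. The other, Cd37, a tetraspanin of leukocytes, had 44.3 and stayed at 5.00 to 11.6 CPM in the chow and 11.2 to 23.4 CPM in the HFD Glycam1-low libraries. Scaled by exon length, the highest median levels in the chow Glycam1-high libraries were those of Ighm at 505, Cd79a at 162 and Cd79b at 161 CPM per kb, and the lowest was that of Foxp3 at 3.90 CPM per kb.

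Ighm, the constant region of the IgM heavy chain, was the exception. The gene lies on chromosome 12 at chr12:113418558-113422730 on the minus strand (GRCm38). On chow it was at 927 to 1024 CPM in WT-Tg 1 to 4, at 778 and 487 CPM in D316A-Tg 8 and 11, and still at 370 and 393 CPM in WT-Tg 5 and 6. D316A-Tg 7, 9, 10 and 12 had 185, 91.9, 197 and 224 CPM, below both of those WT-Tg libraries. Its ratio of medians on chow was 4.52, the smallest of the 29 genes. On HFD the order of the pooled medians turned, with 949 CPM in Glycam1-high and 1290 CPM in Glycam1-low libraries, a ratio of 0.735. Most Glycam1-high libraries there were D316A-Tg and most Glycam1-low ones WT-Tg, so these medians mix kind with genotype. Within WT-Tg the order did not turn, with WT-Tg 3 at 1321 CPM and the Glycam1-low libraries at 1026 to 1550 CPM (median 1290). In D316A-Tg the lowest library, number 7 at 438 CPM, was Glycam1-high, and the highest, number 12 at 1415 CPM, Glycam1-low. The next lowest, number 10 at 508 CPM, was also Glycam1-low, so the D316A-Tg libraries showed no order by kind. All 7 HFD Glycam1-low libraries, at 508 to 1550 CPM, were above all 6 chow ones, at 91.9 to 393 CPM, though the tables were scaled separately and this was not tested.

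Per count of its partners Cd79a and Igkc, Ighm stood higher in the Glycam1-low than in the Glycam1-high libraries. Ighm counts per Cd79a count were 3.59 to 5.25 in the chow Glycam1-high libraries and 111 to 1928 in the Glycam1-low ones, and 6.00 to 19.1 against 243 to 2667 on HFD. Igkc, the constant region of the kappa light chain that most mouse B cells use, amounted to 36.2% to 46.7% of Ighm counts in the chow Glycam1-high libraries. In the chow Glycam1-low libraries that share was 9.16% and 4.03% in WT-Tg 5 and 6 and 0.816% to 2.17% in the 4 D316A-Tg libraries. On HFD it was 17.9% to 56.9% in Glycam1-high and 0.139% to 1.12% in Glycam1-low libraries. Mzb1, a chaperone of antibody-making cells, was at 4.17 to 19.8 CPM in the HFD Glycam1-high libraries and 0 to 0.660 CPM in the others. Jchain, which joins IgM into polymers, was at 8.89 to 113 CPM and 0.376 to 2.79 CPM.

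**Figure D2:**
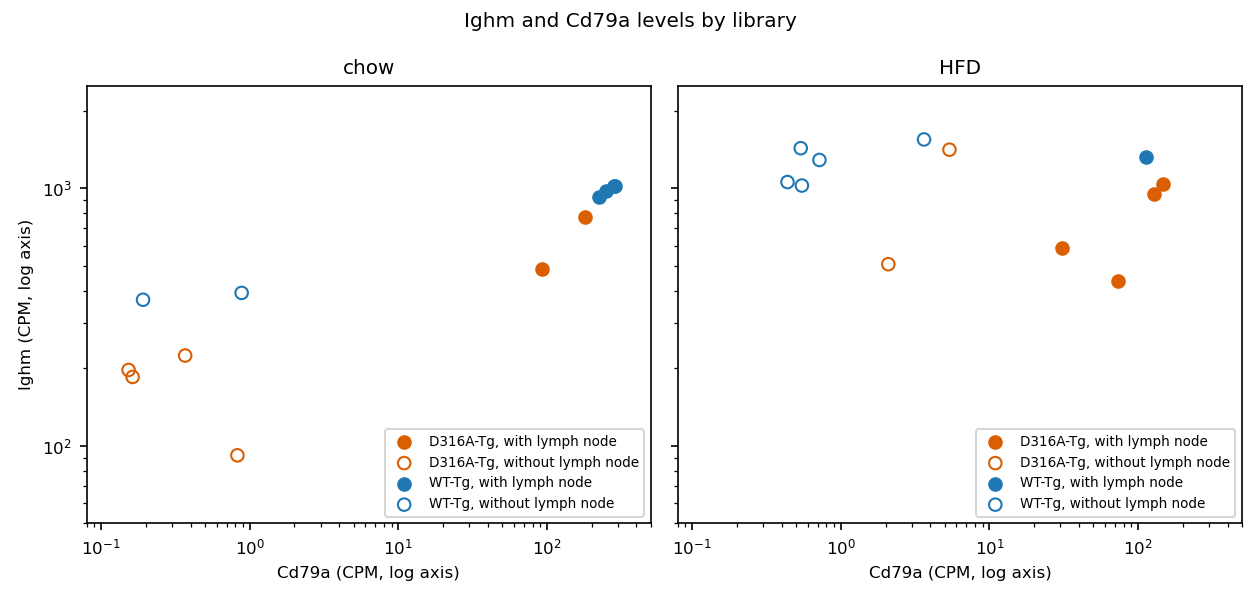
Ighm against Cd79a in each library, both in CPM on log axes, with filled points for Glycam1-high (with lymph node) and open points for Glycam1-low libraries. On HFD the open points reach 1550 CPM of Ighm at 0.438 to 5.38 CPM of Cd79a.

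The promoters of genes of both lineages are described here as sequences, and their part in the levels across libraries was not tested. Promoter windows of RefSeq on GRCm38.p6, from 250 bases before to 50 after a gene's start, were found for 21 of the 29 genes, in 31 windows, and the 250 bases before the start were searched in each. Those of Ms4a1, Cxcr5, Blk, Ighm, Cd8b1, Cd79b, Ccr7 and Cd4 were not found. The letters CAGGTG, read on both strands and known as a site of E proteins, which act in T and B cell development, were in 14 of the 31 windows (45.2%) and in 17.2% of all 32851 windows. They fell in windows of 13 genes, Cd3d, Cd3g, Cd247, Lck, Zap70, Cd5, Cd79a, Cd22, Fcrla, Bank1, Fcer2a, Ltb and Cd37. The letters CAGGAAGT, an Ets factor site, were in 7 of the 31 windows (22.6%) and in 2.69% of all windows, and the octamer ATGCAAAT was in none of the 31 and in 1.60% of all. The related letters CAGCTG were in 4 of the 31 windows (12.9%) and in 13% of all, so they showed no excess. These are 4 of 14 letter strings searched, and a match describes the sequence, not binding. Cd3d and Cd3g lie head to head, with 1355 bases between their starts. The parts of 4 windows that lie before the gene starts of GENCODE follow (250 bases each, but 134 for Cd79a, whose GENCODE start lies upstream of the RefSeq one), 5′ to 3′ on the gene's strand, with CAGGTG or its reverse complement CACCTG in capitals: Cd3d at chr9:44981536-44981785 (plus strand), Cd3g at chr9:44980432-44980681 (minus), Cd79a at chr7:24897247-24897380 (plus) and Fcrla at chr1:170927584-170927833 (minus).
Cd3d: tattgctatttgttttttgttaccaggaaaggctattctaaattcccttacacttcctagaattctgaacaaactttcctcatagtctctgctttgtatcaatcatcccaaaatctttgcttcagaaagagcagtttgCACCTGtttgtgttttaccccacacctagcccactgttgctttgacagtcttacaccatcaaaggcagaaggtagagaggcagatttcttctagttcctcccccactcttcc
Cd3g: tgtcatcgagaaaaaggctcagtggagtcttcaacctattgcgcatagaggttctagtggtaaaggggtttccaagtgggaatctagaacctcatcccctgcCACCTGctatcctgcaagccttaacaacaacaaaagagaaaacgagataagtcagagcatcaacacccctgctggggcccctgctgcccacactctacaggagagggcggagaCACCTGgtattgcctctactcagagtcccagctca
Cd79a: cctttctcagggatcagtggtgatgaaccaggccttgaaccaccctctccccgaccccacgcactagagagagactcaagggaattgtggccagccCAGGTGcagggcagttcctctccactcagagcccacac
Fcrla: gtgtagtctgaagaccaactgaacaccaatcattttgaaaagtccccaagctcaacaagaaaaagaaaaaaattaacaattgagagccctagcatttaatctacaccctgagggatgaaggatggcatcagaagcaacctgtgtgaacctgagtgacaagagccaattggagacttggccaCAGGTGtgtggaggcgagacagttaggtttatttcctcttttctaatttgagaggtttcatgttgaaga

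The balance between T and B cell genes differed between the kinds of library. A T score, the mean log2 CPM of Cd3d, Cd3e, Cd3g, Cd247, Lck and Zap70, and a B score, that of Cd79a, Cd79b, Ms4a1, Cd22, Blk and Pax5, were taken in each library, and their difference is called the balance. It was negative in 5 of the 6 chow Glycam1-high libraries, from -0.95 to -0.38, and positive in D316A-Tg 11, at 0.33. In all 6 chow Glycam1-low libraries it was positive, from 1.31 to 2.37. On HFD it ran from -1.79 to -0.30 in the 5 Glycam1-high libraries, lowest in D316A-Tg 11. The HFD Glycam1-low libraries spread from -0.42 to 1.42, with negative values in WT-Tg 4 and D316A-Tg 10 and 12, the 3 libraries with more Cd79a. Genotypes overlapped within each kind: the 4 WT-Tg chow Glycam1-high libraries ran from -0.95 to -0.38 and the 2 D316A-Tg ones were at -0.85 and 0.33. The sign in Glycam1-low libraries depended on the genes chosen. With all T cell against all B cell genes, Ighm included, the median balance was 0.26 on chow and -0.22 on HFD. The scores of chow Glycam1-low libraries also rest on few counts, such as 4 to 22 of Cd3e and 2 to 15 of Cd79a. Their T score holds Cd247 with its higher floor.

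**Figure D3:**
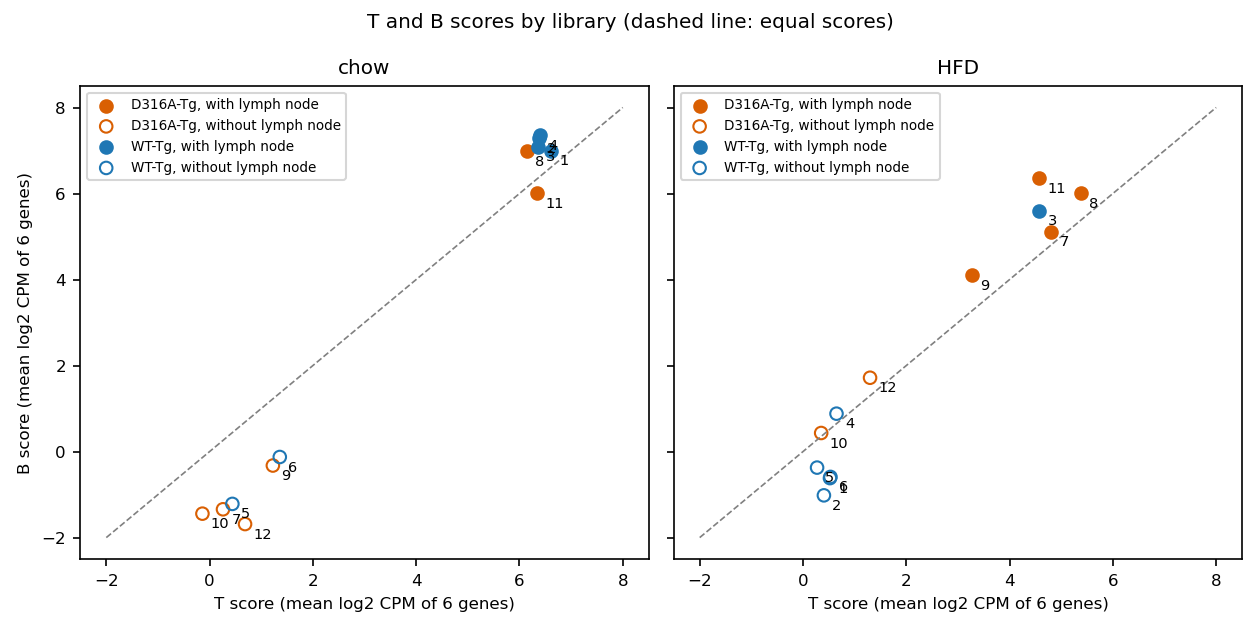
T score against B score of each library, both in mean log2 CPM of 6 genes, numbered by library, with filled points for Glycam1-high (with lymph node) libraries. Chow Glycam1-high libraries lie at T scores of 6.14 to 6.61 and, apart from D316A-Tg 11, above the dashed line of equal scores, and all chow Glycam1-low libraries lie below it.

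Other genes of lymphocytes, from lists that do not hold the 29, gave the same picture. All 16 other T cell genes and all 14 matched other B cell genes were separated between the kinds on chow. On HFD 14 of 16 T cell and 10 of 14 B cell genes were, beside the 24.8% and 7.11% of all genes above. Lat, an adaptor of T cell receptor signalling, and Trbc2, a constant region of the receptor, were at 116 to 148 CPM and 92.9 to 124 CPM in the chow Glycam1-high libraries, and at 0.571 to 1.77 CPM and 0.689 to 2.41 CPM in the others. Igkc was at 176 to 410 CPM against 1.61 to 33.9 CPM. Ccl5, a chemokine of cytotoxic cells, was at 130 to 245 CPM against 3.32 to 8.61 CPM, and Il2rb, a receptor chain of natural killer and T cells, at 51.8 to 79.7 CPM against 2.68 to 12.7 CPM. Of 12 cytotoxic and innate lymphocyte genes, 6 were separated on chow and 4 on HFD. Plasma cell genes mostly overlapped, with 2 of 8 separated on each diet, and Xbp1, a factor of secretory cells, was at 120 to 180 CPM in the Glycam1-high and 190 to 277 CPM in the Glycam1-low chow libraries. Of 5 germinal centre genes, 3 were separated on each diet.

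Between genotypes on chow, with all 12 libraries, all 29 genes were nominally lower in D316A-Tg and none passed the test. With edgeR's quasi-likelihood test and Benjamini-Hochberg adjustment over 15564 genes, 0 of 29 were called at an adjusted p below 0.05, beside 8.32% of all genes. The median log2 fold change of the 29 (D316A-Tg over WT-Tg) was -1.27, against -0.08 over all genes tested. At an unadjusted p below 0.05 stood 1 gene, Ighm, and DESeq2 called 1, also Ighm, beside 19.7% of all genes. Its level was 370 to 1024 CPM in WT-Tg and 91.9 to 778 CPM in D316A-Tg, and its log2 fold change was -1.26 (SE 0.50, adjusted p = 0.118 by edgeR and 0.0482 by DESeq2). Without D316A-Tg 8, edgeR called Ighm too, at -1.73 (adjusted p = 0.0233), beside 21.8% of all genes. For single genes the errors were wide: Cd3e was at -1.30 (SE 1.44, adjusted p = 0.540), Cd4 at -1.12 (SE 1.45, 0.599), Cd8a at -1.03 (SE 1.5, 0.640) and Foxp3 at -1.20 (SE 1.47, 0.577). Il7r was at -0.15 (SE 1.55, adjusted p = 0.951), Cd79a at -1.92 (SE 1.79, 0.469) and Ms4a1 at -1.20 (SE 1.74, 0.640). Of the other lymphocyte lists, 0 of 16 T cell and 0 of 14 B cell genes were called by edgeR, and none had an unadjusted p below 0.05. With a term for kind added, 3 of the 29 were called, all lower in D316A-Tg (Ighm, Fcer2a and Cd37), beside 14.9% of all genes called lower and 28.4% called either way.

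Within the chow Glycam1-high libraries, 1 of the 29 genes, Il7r, was called higher in D316A-Tg, and the share of the 29 called was near that of all genes. WT-Tg 1 to 4 had 95.2, 82.1, 137 and 82.7 CPM, and D316A-Tg 8 and 11 had 163 and 194 CPM, without overlap. Its log2 fold change was 0.85 (SE 0.19, adjusted p = 0.0374 by edgeR), and it was the only one of 29 genes called, beside 3.56% of all genes, 1.68% being called higher. Fitted on only these libraries, Il7r was at 0.88 and not called (adjusted p = 0.0875 by edgeR). As a share of Cd3e counts, Il7r was 109% to 198% in the 4 WT-Tg and 299% and 327% in the 2 D316A-Tg libraries. The call rested on few libraries: leaving out any of WT-Tg 1, 2 or 4 or D316A-Tg 8, 11 or 12 ended it, with adjusted p-values from 0.0536 to 0.284 and log2 fold changes from 0.72 to 0.96. B cell genes lay on the other side of 0, with a median of -0.64 over 11 genes and 6 at an unadjusted p below 0.05, none called by edgeR. Fcer2a was nearest at -1.09 (SE 0.27, adjusted p = 0.0547), with 206 to 270 CPM in WT-Tg and 152 and 67.8 CPM in D316A-Tg, and it was called without D316A-Tg 8, beside 0.536% of all genes. Cd79a was at -0.93 (SE 0.33, adjusted p = 0.128), Ms4a1 at -0.20 (SE 0.25, 0.665) and Ighm at -0.64 (SE 0.30, 0.214). Leaving out 1 library moved Cd79a between -1.49 (without D316A-Tg 8) and -0.52 (without D316A-Tg 11), and Ighm between -1.02 and -0.34 without the same libraries. DESeq2 called Cd79a, Fcer2a and Cd37 lower and Il7r higher, beside 12.6% of all genes. Among T cell genes, Cd3e was at -0.33 (SE 0.26, adjusted p = 0.468), Cd4 at -0.14 (SE 0.26, 0.787), Cd8a at -0.05 (SE 0.34, 0.949) and Foxp3 at -0.22 (SE 0.36, 0.756).

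Within the chow Glycam1-low libraries, 2 of the 29 genes, Ighm and Cd247, were called lower in D316A-Tg, a smaller share than among all genes. Ighm, at 370 and 393 CPM in WT-Tg and 91.9 to 224 CPM in D316A-Tg, differed by -1.13 on the log2 scale (SE 0.28, adjusted p = 0.0190 by edgeR). Cd247 had 4.86 and 5.53 CPM in the WT-Tg libraries against 2.12, 3.65, 2.30 and 3.38 CPM in D316A-Tg, and its log2 fold change was -0.85 (SE 0.22; adjusted p = 0.0215). These 2 of 29 stood beside 21.1% of all genes, 11.7% being called lower. DESeq2 called both too, beside 25.7%. Fitted on only these libraries, neither was called, with adjusted p-values by edgeR of 0.06 for Ighm and 0.0859 for Cd247. Several of the 29 had few counts in these libraries and passed the filter only through the Glycam1-high ones. The median of the 29, which includes such genes, was -0.46, against -0.01 over all genes tested. It was -0.94 without WT-Tg 5 and -0.04 without WT-Tg 6. Without WT-Tg 5 or without WT-Tg 6, neither was called, with adjusted p-values of 0.0636 and 0.0846 for Ighm and 0.0603 and 0.115 for Cd247, beside 6.24% and 8.31% of all genes called; the single WT-Tg library left was then assumed to vary like the other groups. Without WT-Tg 5, Cd8a was called, with 58 counts in WT-Tg 6 against 10 to 25 in the D316A-Tg libraries. Without D316A-Tg 12, Foxp3 was called as well, beside 15% of all genes, on 3 and 7 counts in WT-Tg against 1, 0 and 0, so it passed the filter on low counts only through the Glycam1-high libraries. Without D316A-Tg 8 or 11, which are Glycam1-high and share the fit, Cd37 was called as well, beside 20.7% and 20.6% of all genes. Igkc and 2 of 8 plasma cell genes, Jchain and Mzb1, were called lower too. Igkc was at 33.9 and 15.8 CPM in WT-Tg and 1.61 to 2.65 CPM in D316A-Tg, with log2 fold change -3.50 (SE 0.34, adjusted p = 0.000803). Jchain, at 7.79 and 4.53 CPM against 0.766 to 1.65 CPM, was at -2.32 (SE 0.67, adjusted p = 0.0324). Mzb1 was at -2.42 (SE 0.74, adjusted p = 0.0385), with 3 and 8 counts in the WT-Tg libraries and at most 2 in any D316A-Tg one, so it passed the filter only through the Glycam1-high libraries. Xbp1 at -0.05 (SE 0.18, adjusted p = 0.85) and Irf4 at 1.28 (SE 0.65, 0.18) were not called. Cd40, the receptor through which T cells help B cells, was at -1.54 (SE 0.25, adjusted p = 0.00387), and Lcp2, an adaptor of T cell signalling that myeloid cells also use, at -0.86 (SE 0.17, 0.00861). Of the lymph node genes, Cxcl13 was lower at -1.78 (SE 0.53, adjusted p = 0.0379) and Madcam1, an adhesion molecule of mucosal vessels, higher at 2.54 (SE 0.73, 0.0308). Skeletal muscle genes moved with them, the summed level of 6 being 882 and 9001 CPM in the 2 WT-Tg and 57.9 to 261 CPM in the 4 D316A-Tg libraries. The summed macrophage and dendritic cell genes were at 312 and 215 CPM against 117 to 208 CPM, and the summed adipocyte genes at 32985 and 31761 CPM against 38030 to 47918 CPM, and the part of these was not tested. The other named genes did not pass: Cd3e was at -0.27 (SE 0.51, adjusted p = 0.741), Cd4 at -0.09 (SE 0.44, 0.905), Cd8a at -0.55 (SE 0.53, 0.486), Foxp3 at -1.38 (SE 0.82, 0.247), Il7r at -0.36 (SE 0.36, 0.506), Cd79a at -0.48 (SE 0.76, 0.681) and Ms4a1 at -0.46 (SE 0.76, 0.699). Cd79a had 2 to 15 counts in these libraries and Ms4a1 had 1 to 9, so both passed the filter only through the Glycam1-high ones.

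**Figure D4:**
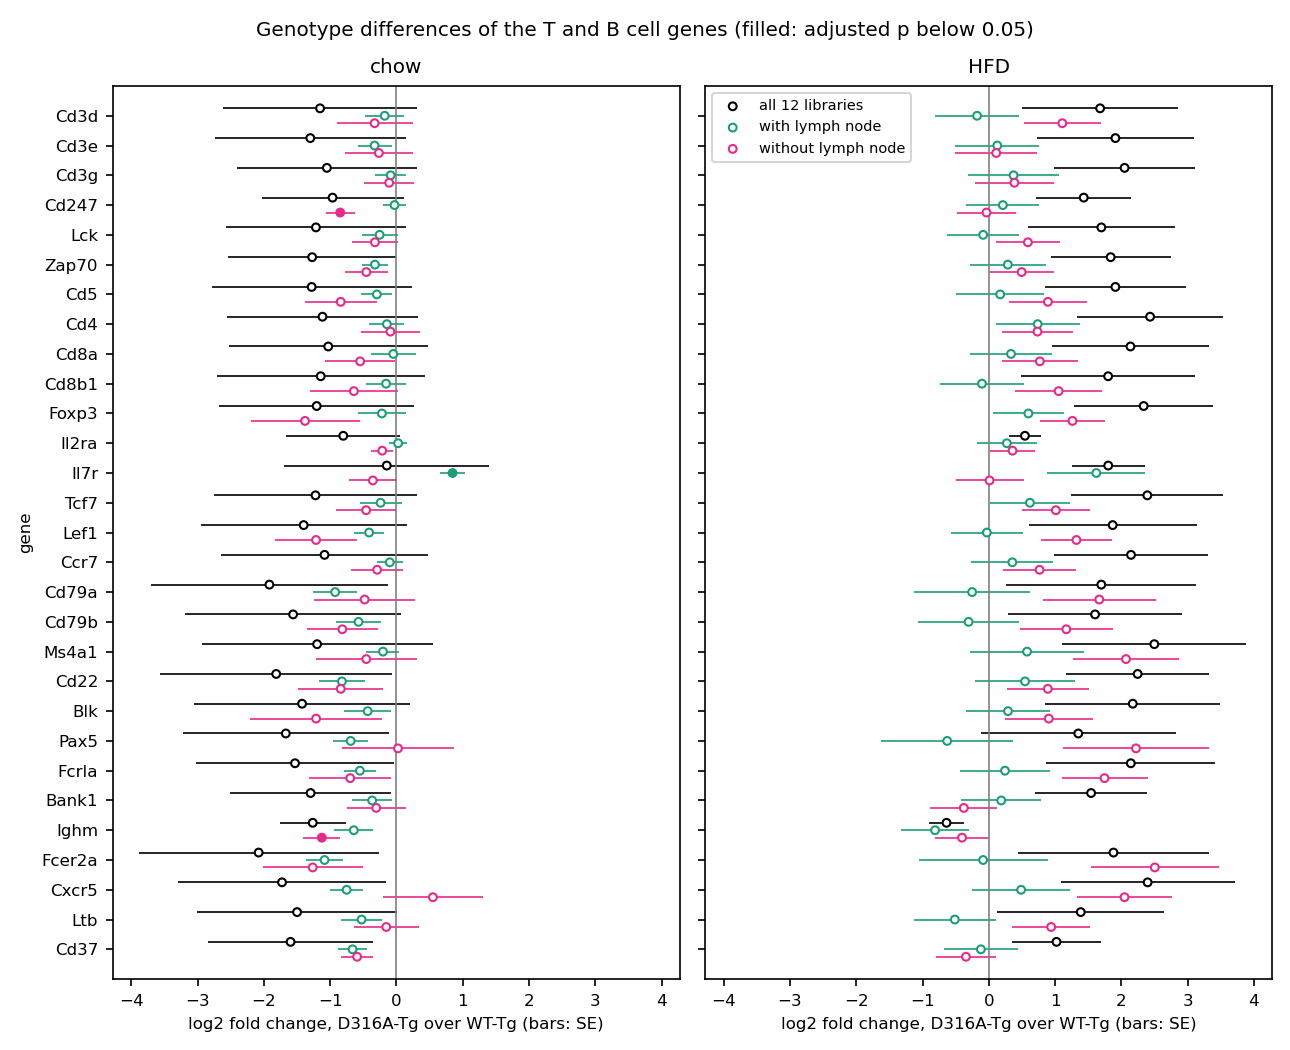
Log2 fold change (D316A-Tg over WT-Tg) of each gene with its standard error, over all 12 libraries of a diet, within Glycam1-high (with lymph node) and within Glycam1-low libraries. Filled points mark an adjusted p below 0.05 by edgeR: Il7r in chow Glycam1-high libraries, and Cd247 and Ighm in chow Glycam1-low ones.

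On HFD, with all 12 libraries, 28 of the 29 genes were nominally higher in D316A-Tg, and again none passed the test. edgeR called 0 of 29, beside 8.81% of 14994 genes, and 5 had an unadjusted p below 0.05. DESeq2 called 1, Il7r, beside 19.5% of all genes. The median log2 fold change of the 29 was 1.87, against 0.01 over all genes. Il7r was at 5.51 to 20.7 CPM in WT-Tg (median 14.6) and 9.39 to 104 CPM in D316A-Tg (median 43.6), and its log2 fold change was 1.80 (SE 0.55, adjusted p = 0.0612 by edgeR and 0.00632 by DESeq2). Ighm was the one gene on the other side, at 1026 to 1550 CPM (median 1305) in WT-Tg and 438 to 1415 CPM (median 769) in D316A-Tg, with log2 fold change -0.64 (SE 0.27, adjusted p = 0.134). Cd3e was at 1.91 (SE 1.19, adjusted p = 0.280), Cd4 at 2.43 (SE 1.10, 0.154), Cd8a at 2.14 (SE 1.18, 0.230) and Foxp3 at 2.34 (SE 1.05, 0.153). Of the B cell genes, Cd79a was at 1.70 (SE 1.44, adjusted p = 0.42) and Ms4a1 at 2.50 (SE 1.39, 0.231).

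This result rested on WT-Tg 3, the only Glycam1-high WT-Tg library on HFD. Without it, every WT-Tg library left was Glycam1-low, while most D316A-Tg ones were Glycam1-high. The contrast then largely repeated the split by kind, by which 27 of the 29 were already separated, so genotype and kind could not be told apart. In that fit, edgeR called 26 of the 29 genes higher in D316A-Tg, beside 8.31% of all genes called higher and 13.6% either way, with a median log2 fold change of 4.53. The 3 not called were Il2ra, Ighm and Cd37. Without D316A-Tg 10, Il7r alone was called (2.02, adjusted p = 0.0376), beside 8.1% of all genes, and without D316A-Tg 12, Il7r (1.99, adjusted p = 0.0202) and Ighm (-0.86, adjusted p = 0.0216), beside 26.7%. With a term for kind in place of leaving libraries out, 0 of 29 were called, beside 0.574% of all genes, 4 had an unadjusted p below 0.05, and the median was 0.56. Of the other lists, edgeR called none of 16 T cell and none of 14 B cell genes, with 5 and 0 at an unadjusted p below 0.05. Genes of the germinal centre and plasma cell lists were called that other cells use as well: S1pr2, a sphingosine phosphate receptor, at -1.02 (SE 0.28, adjusted p = 0.0449), and Irf4, a transcription factor of plasma cells and of fat cells, at 2.18 (SE 0.41, 0.0202). Of 10 macrophage and dendritic cell genes, Mrc1 (-1.33, adjusted p = 0.0359) and C1qa (-1.10, 0.0346) were called lower. Skeletal muscle genes were called higher, all 6 of 6, with Mylpf at 5.94 (SE 1.15, adjusted p = 0.0202), and their part in the lymphocyte values was not tested.

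**Figure D5:**
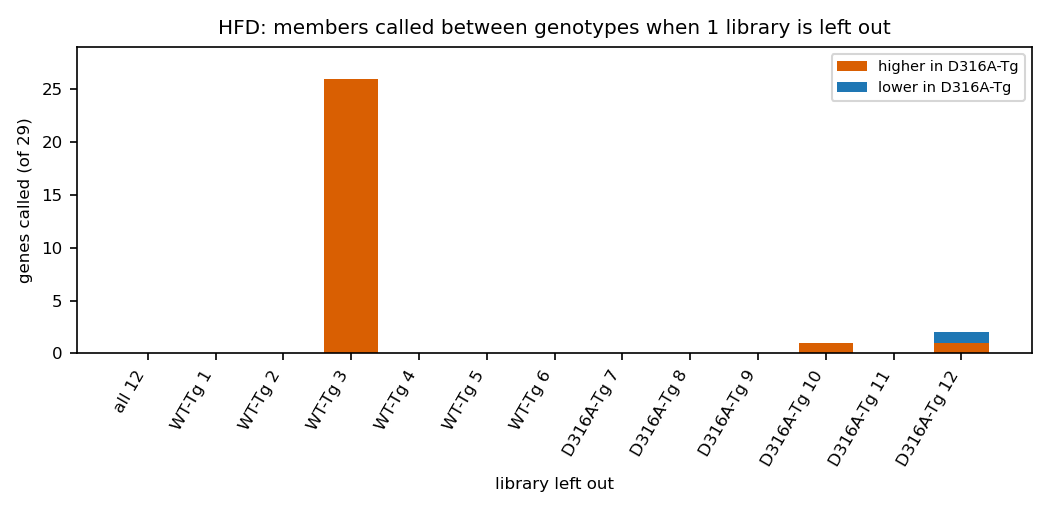
Number of the 29 genes called between genotypes on HFD by edgeR with all 12 libraries and with each library left out in turn. The bar without WT-Tg 3, where every WT-Tg library left is Glycam1-low, reaches 26 genes and no other bar exceeds 2.

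Within the kinds on HFD no gene was called. In the Glycam1-high libraries, where the 1 WT-Tg library is assumed to vary like the others, edgeR called 0 of 29, beside 0.0934% of all genes. None had an unadjusted p below 0.05, DESeq2 called 0, beside 3.49% of all genes, and the median log2 fold change was 0.21. WT-Tg 3 had 20.7 CPM of Il7r, and the D316A-Tg libraries had 63.6, 104, 27.4 and 59.9 CPM, all higher, with log2 fold change 1.62 (SE 0.74, adjusted p = 0.378). Its share of Cd3e counts was 94.0% in WT-Tg 3 and 252% to 285% in the 4 D316A-Tg libraries. Thus all 6 D316A-Tg Glycam1-high libraries of both diets, at 252% or more, were above all 5 WT-Tg ones, at 198% or less, a comparison chosen after these values were seen and not tested. Cd3e was at 0.13 (SE 0.63, adjusted p = 0.952), Cd4 at 0.74 (SE 0.64, 0.649), Cd8a at 0.34 (SE 0.62, 0.854) and Foxp3 at 0.60 (SE 0.54, 0.668). Cd79a was at -0.25 (SE 0.87, adjusted p = 0.928), Ms4a1 at 0.58 (SE 0.86, 0.811) and Ighm at -0.81 (SE 0.51, 0.519). The summed muscle genes were at 37.2 CPM in WT-Tg 3 and 396 to 16702 CPM in the D316A-Tg libraries, and their part was not tested.

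In the HFD Glycam1-low libraries, edgeR called 0 of 29, beside 0% of all genes, with 6 of the 29 at an unadjusted p below 0.05, and DESeq2 called 0, beside 1.51% of all genes. The median log2 fold change was 0.89, and 0.38 without D316A-Tg 12, the library just under the threshold. Some of the 29 had few counts here, such as 3 to 11 of Foxp3 and 0 to 22 of Pax5, and passed the filter only through the Glycam1-high libraries. B cell genes had the larger differences, with a median of 1.67 over 11 genes against 0.75 over the 16 T cell genes. Ms4a1, at 0.215 to 1.84 CPM in the 5 WT-Tg libraries and 1.60 and 5.08 CPM in the 2 D316A-Tg ones, was at 2.07 (SE 0.80, adjusted p = 0.415), and Cd79a at 1.67 (SE 0.85, 0.535). Foxp3 was at 1.26 (SE 0.50, adjusted p = 0.419), Cd3e at 0.11 (SE 0.62, 0.966), Cd4 at 0.74 (SE 0.54, 0.685) and Cd8a at 0.77 (SE 0.57, 0.687). Il7r, at 5.51 to 16.9 CPM and 9.39 and 14.4 CPM, was at 0.01 (SE 0.51, adjusted p = 0.995), and Ighm at -0.40 (SE 0.41, 0.783).

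The genotype effect on HFD minus that on chow was positive for all 29 genes, with a median of 3.20 on the log2 scale, and edgeR called none over the 24 libraries, beside 13.9% of 15476 genes. None had an unadjusted p below 0.05 and DESeq2 called 0, beside 19.8% of all genes. Diet, age and base-calling version cannot be told apart here. Cd3e was at 3.25 (SE 1.94, adjusted p = 0.240), Cd4 at 3.59 (SE 1.90, 0.188), Cd8a at 3.20 (SE 1.98, 0.256) and Foxp3 at 3.58 (SE 1.89, 0.189). Cd79a was at 3.65 (SE 2.38, adjusted p = 0.281), Ms4a1 at 3.73 (SE 2.31, 0.256), Ighm at 0.65 (SE 0.58, 0.438) and Il7r at 1.99 (SE 1.71, 0.416). Without WT-Tg 3 of HFD, which leaves kind and genotype mixed on that diet, 13 of the 29 were called, beside 15.8% of all genes, with a median of 5.74. With a term for kind within each diet edgeR called none, beside 12.6% of all genes, 8 had an unadjusted p below 0.05, and the median was 0.79. Of the other lists, Jchain was called, at 4.77 (adjusted p = 0.0384), as were 6 of 6 skeletal muscle genes.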

How the data were processed

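Messenger RNA of whole inguinal fat was sequenced in 24 libraries, per the labels with a stranded kit. The authors deposited whole-number read counts per gene, in 1 table per diet. Per the submitters' processing notes, mm10, STAR 2.4.1, FastQC and DESeq2 were used, and base calling differed between the diets, with version 2.20.0.422 of bcl2fastq on chow and, on HFD, bclfastq 2.16.0.10. How reads were assigned to genes, and whether strand was used, is not stated there.

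Counts were tested as deposited with edgeR 4.0.16 (R 4.3.3; robust quasi-likelihood F test, TMM scaling, genes with a mean count of at least 10 per library of the diet), and a gene was called where its p, adjusted by Benjamini and Hochberg's method across every gene of the fit, was below 0.05. CPM is per 1000000 counts of the TMM-scaled library, and log2 CPM used a prior count of 2. At 13254536 to 22748132 counts per library, a count of 0 allows up to 3 counts, and such limits cover counting error only. Within kinds of library (Glycam1 above 1 CPM or not), 1 coefficient was fitted per genotype and kind, so all 12 libraries of a diet shared the estimate of spread. The difference between diets was fitted on 24 libraries, joined by gene identifier.

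Alternatives were DESeq2 1.42.0 with the same design, RLE scaling, filterByExpr, no filter beyond 1 count, a Glycam1 threshold of 5 CPM, only the libraries of a kind, a term for kind, a replicate block, a prior count of 0.5, other balances, and leaving out each library. Steps were tested on simulated data. The members and lists were chosen with earlier results of these data known. Named genes are the 29, with test values for 1 gene per role and for every gene called; of other lists, a selection of their most abundant and called genes. Ighd was not matched. Positions and exon overlaps came from GENCODE M21 (GRCm38), promoter windows from RefSeq.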

Additional observations from a re-analysis of the deposited data

Results flagged for a closer look

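The WT-Tg group on HFD held 1 library far above its other 5. In WT-Tg 3, the gap to the next library, divided by the range of the group, was 0.713 to 0.986 for 26 of the 29 genes, for Glycam1 and for both scores. Of 132 group tests over these genes and scores all 29 that passed were this library, on the high side. These 29 include Glycam1, which set the kind of this library, and genes that followed it. The genes are not independent of each other, so no chance rate applies to this count. Among T cell genes its levels were 29.8 CPM for Cd3d, 22 for Cd3e, 22.9 for Cd3g, 20.6 for Cd247, 59.1 for Lck, 9.56 for Zap70 and 13 for Cd5. Cd4 stood at 27.1 CPM, Cd8a at 25.5, Cd8b1 at 30, Foxp3 at 4.54, Tcf7 at 49.5, Lef1 at 22.9 and Ccr7 at 33.9. Among B cell genes, Cd79a was at 113 CPM, Cd79b at 111, Ms4a1 at 55.0, Cd22 at 43.4, Blk at 20.4, Pax5 at 20.6, Fcrla at 19, Bank1 at 31.1, Fcer2a at 45.1 and Cxcr5 at 19. The shared genes Ltb and Cd37 were at 74.3 and 89.7 CPM, and Glycam1 at 2.38 CPM. Its T score was 4.57 and its B score 5.60 in mean log2 CPM. Il7r, Il2ra and Ighm of that library did not stand apart.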

How the results depend on the processing

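Between genotypes on chow, DESeq2 called 1 of the 29 genes and a term for kind 3, against 0, and that term turned Il7r to 0.58 (adjusted p = 0.0576). In chow Glycam1-high libraries DESeq2 called 4 genes against 1 and a fit on only that kind called 0; in chow Glycam1-low libraries that fit called 0 against 2. On HFD, DESeq2 called 1 against 0. The balance of HFD Glycam1-high libraries had a median of -1.63 with Cd3e against Cd79a (main -0.83), and that of Glycam1-low ones -0.22 with all genes, 0 with Cd3e against Cd79a and 0.24 with summed CPM (main 0.65). On chow it was -1.85 with Cd3e against Cd79a in Glycam1-high libraries (main -0.79), and 0.26 with all genes, 0.65 with Cd3e against Cd79a and 1.95 with summed CPM in Glycam1-low ones (main 1.58). The cause of these moves was not tested. Over these settings, 77 summaries and 288 gene values kept their direction and call. The call was gained by 6 gene values and lost by 3, which include changes named above.

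Leaving out each library in turn, the genes called ranged from 0 to 1 on chow, 0 to 1 and 0 to 3 within its Glycam1-high and Glycam1-low libraries, 0 to 26 on HFD and 0 to 13 for the difference between diets. The median on HFD ran from 1.41 to 4.53. Signs turned for small values: in HFD Glycam1-high libraries, Cd3e ran from -0.27 to 0.39 and Cd79a from -0.55 to 0.041, and in Glycam1-low ones Cd3e from -1.06 to 0.71, Ighm from -1.32 to 0.15 and Il7r from -0.33 to 0.28. On chow Il7r ran from -0.99 to 0.19, and in Glycam1-high libraries Cd8a from -0.25 to 0.13 and Ms4a1 from -0.67 to 0.15. In chow Glycam1-low libraries, Cd3e ran from -0.94 to 0.87, Cd4 from -0.56 to 0.42, Cd79a from -1.30 to 1.00, Cd8a from -1.40 to 1.40 and Ms4a1 from -1.18 to 0.88.

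The numbers 1 to 12, given on both diets, did not pair the samples: correlations of same-numbered libraries ran from -0.377 to 0.621, and 4 of 12 libraries matched their own number best. With the replicate block, 9 genes were called for the difference between diets against 0, beside 17.4% of all genes. HFD Glycam1-high libraries gave no value at a Glycam1 threshold of 5 CPM, with only that kind fitted or without WT-Tg 3. In Glycam1-low libraries several genes had few counts, such as Foxp3 with 0 to 7 on chow, and what size of difference this depth could show was not tested.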

Other observations

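On HFD the macrophage genes Csf1r and Mrc1 ran opposite to the lymphocyte genes across the kinds of library. Of the 10 listed macrophage and dendritic cell genes, 2 went the other way, higher in every Glycam1-high than in any Glycam1-low library. The share of all genes so separated was 7.11%, and the share separated in the direction of Csf1r and Mrc1 was not computed. Most Glycam1-high libraries on HFD were D316A-Tg and most Glycam1-low ones WT-Tg, so kind and genotype were mixed. Csf1r, the growth factor receptor of macrophages, was at 42.2 to 78.2 CPM in the Glycam1-high and 85.6 to 227 CPM in the Glycam1-low libraries, and Mrc1, a macrophage scavenger receptor, at 28.2 to 64.9 CPM and 69.2 to 234 CPM. On chow the Csf1r ranges overlapped, at 60.8 to 217 CPM and 25.9 to 88.7 CPM. The summed level of the 10 listed macrophage and dendritic cell genes was 154 to 298 CPM in Glycam1-high and 341 to 999 CPM in Glycam1-low libraries on HFD, and 267 to 695 CPM and 117 to 312 CPM on chow. These genes and those below were chosen after their values were seen.

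Ccl21a and Ccl19, chemokines that draw T cells into nodes, were at 33.8 to 145 CPM and 0.952 to 7.59 CPM in the HFD Glycam1-high libraries. In all 12 chow libraries Ccl21a was at most 0.0589 CPM and Ccl19 had no counts. Both belong to families of near-identical copies, so the authors' counting of the tables can split their reads, and this was not tested.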
